A study of Mus musculus with 6 samples.

Results

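The core circadian clock genes were followed in the retina of WT and *Wfs1*-KO mice. The rule took the 10 rows of the count table named *Arntl*, *Clock*, *Per1*, *Per2*, *Per3*, *Cry1*, *Cry2*, *Nr1d1*, *Nr1d2* and *Dbp*, out of 55376 genes in the table, and all 10 passed the low-count filter that left 18547 genes for testing. RNA-seq was done on 3 WT and 3 *Wfs1*-KO retinas from mice 240 days old, labelled C57x129 by strain, although the methods give a C57BL/6J background. The mutant mice carry a targeted allele that deletes *Wfs1* exon 8 and is not limited to 1 cell type. The labels name no treatment for either group, and the hour of collection and the light schedule are not given in the sources used here.

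The circadian clock is a feedback loop of transcription. The proteins of *Arntl* (BMAL1) and *Clock* pair up and switch on the *Per*, *Cry* and *Nr1d* genes and *Dbp* through DNA elements called E-boxes. PER and CRY proteins then shut their own activators down, while the REV-ERB proteins of *Nr1d1* and *Nr1d2* silence *Arntl* through elements called ROREs, and DBP drives genes with D-boxes. In the mammalian retina this loop runs locally and times dopamine and melatonin signalling, light adaptation and the renewal of photoreceptor discs. Messenger levels of most of these genes swing with the hour of the day, with *Arntl* peaking at the opposite time to *Dbp*, *Nr1d1* and the *Per* genes.

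Letters matching patterns for the 3 kinds of element were searched in windows of 300 bases around annotated transcription starts (the last 50 bases lie after the start). They are shown here for 1 member per element because the elements tie the activators, repressors and outputs of the loop together. Sequences are RefSeq's on GRCm38.p6, 5′ to 3′ on the gene's strand, and capitals mark motif matches on either strand. *Cry1* (chr10:85185005-85185304, minus strand) holds the E-box CACGTG and its variant CACGTT, read as AACGTG on the strand shown. *Arntl* (chr7:113207261-113207560, plus strand) holds matches to the RORE core TNGGTCA, and *Per3* (chr4:151044616-151044915, minus strand) holds the D-box TTANGTAA and a RORE core match.
*Cry1*: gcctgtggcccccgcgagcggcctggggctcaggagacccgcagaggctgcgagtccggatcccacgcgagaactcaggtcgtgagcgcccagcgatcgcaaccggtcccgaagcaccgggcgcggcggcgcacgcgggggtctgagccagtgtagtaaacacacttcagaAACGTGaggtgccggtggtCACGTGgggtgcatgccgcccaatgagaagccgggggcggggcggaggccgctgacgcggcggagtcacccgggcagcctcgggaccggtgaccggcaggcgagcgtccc
*Arntl*: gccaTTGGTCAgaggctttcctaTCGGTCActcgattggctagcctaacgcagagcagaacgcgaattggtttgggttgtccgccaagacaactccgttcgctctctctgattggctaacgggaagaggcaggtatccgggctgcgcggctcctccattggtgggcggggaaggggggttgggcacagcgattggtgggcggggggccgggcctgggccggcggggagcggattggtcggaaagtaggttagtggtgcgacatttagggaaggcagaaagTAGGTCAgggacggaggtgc
*Per3*: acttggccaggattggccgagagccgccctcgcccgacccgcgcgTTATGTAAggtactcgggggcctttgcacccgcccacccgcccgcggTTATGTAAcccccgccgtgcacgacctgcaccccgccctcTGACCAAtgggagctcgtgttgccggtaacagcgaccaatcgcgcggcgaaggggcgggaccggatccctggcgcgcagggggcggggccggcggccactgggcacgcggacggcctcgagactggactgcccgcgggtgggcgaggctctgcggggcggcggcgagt

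Of the 10 members, 9 had windows in the RefSeq table, and *Per2* had none. The E-box occurred in windows of 2 members (*Per1* and *Cry1*), CACGTT in 3 (*Cry1*, *Cry2* and *Nr1d1*), the D-box in 1 (*Per3*) and the loose pattern TNGGTCA in 3 (*Arntl*, *Per3* and *Cry2*). Among all 32851 windows of this length, 2349 held CACGTG (7.15%), 1539 CACGTT (4.68%) and 763 TTANGTAA (2.32%). TNGGTCA was the most common of the searched patterns, in 3602 windows. A member was counted if any of its windows held the pattern, and *Arntl* and *Per1* had 2 windows each and *Clock* 3. The counts of members therefore cannot be set directly against these shares, which are per single window. The CREB element TGACGTCA was also searched and occurred in windows of 0 members, and in 1.79% of all windows. The matches describe the letters in the windows and do not show binding. A match to TNGGTCA need not be a RORE, and an element that departs from the searched letters is left unmarked.

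Total counts per retina ranged from 17916885 to 101334381. *Wfs1* (chromosome 5, exons from 36966104 to 36989205) had 64.9, 61.4 and 69.9 CPM (counts scaled to library size with TMM factors) in WT replicates 1, 2 and 3 and 9.63, 0.900 and 11.5 CPM in the *Wfs1*-KO replicates, so every mutant retina was below every WT retina. *Wfs1* differed by -3.15 log2 units (standard error, SE, 0.77, adjusted p = 0.979, edgeR), and -2.64 (SE 0.16, adjusted p = 2.84e-05, edgeR) without *Wfs1*-KO replicate 2, so that on 6 retinas the deleted gene itself did not pass. The library of *Wfs1*-KO replicate 2 stood apart, with a mean correlation to the others of 0.918 across genes against 0.962 to 0.971 for the rest, and the fold changes of the members and the counts of the lists are therefore also given without it. In that retina the summed CPM of 6 listed blood genes was 480 (12.3 to 41.2 in the other 5), of 13 microglia and macrophage genes 486 (95.6 to 130), of 12 pigment epithelium genes 511 (56.4 to 175), of 12 Mueller glia genes 8314 (5687 to 6804) and of 15 rod genes 73176 (86844 to 97622). The glia sum was dominated by *Apoe*, with 3627 CPM there and 617 to 972 CPM in the other 5. *Vim*, *Crym*, *Sox9* and *Rlbp1* were also highest there. *Glul* (1949 CPM, against 2325 to 3245 CPM), *Aqp4*, *Kcnj10*, *Car14*, *Gpr37* and *Dkk3* were lowest there, so the glia genes did not move together. WT replicate 3 also differed from the others in sex-linked transcripts, with 4 counts of *Xist* against at least 10583 elsewhere and 1137 counts of *Ddx3y* against at most 2.

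All 10 clock genes were well expressed, with 601 to 23878 counts per retina. Levels were compared between genes only as RPKM, the CPM per kilobase of exon. In WT retinas *Nr1d1* and *Dbp* stood at the top, with 75.4 ± 10.4 and 67.7 ± 12.8 RPKM (SD, n = 3). They were followed by *Nr1d2* (44.5 ± 9.51 RPKM), *Cry2* (33.3 ± 3.58), *Arntl* (28.8 ± 1.48), *Cry1* (24.9 ± 2.44), *Per1* (19.8 ± 3.35), *Per3* (13.4 ± 1.39) and *Clock* (13.0 ± 3.67). *Per2* was last, with 5.11 ± 0.715 RPKM. The retinas of neighbours in this order overlapped for *Nr1d1* and *Dbp*, *Nr1d2* and *Cry2*, *Cry2* and *Arntl*, *Cry1* and *Per1*, and *Per3* and *Clock*. They were separate for *Dbp* over *Nr1d2*, *Arntl* over *Cry1*, *Per1* over *Per3* and *Clock* over *Per2*. In *Wfs1*-KO retinas *Dbp* (70.5 ± 14.2 RPKM) and *Nr1d1* (68.8 ± 23.9 RPKM) were again the top pair and *Per2* (4.43 ± 1.70 RPKM) was again last.

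The question of the comparison was which transcripts differ in retinas that lack *Wfs1*. No clock gene was called between the genotypes. Of the 10 members, 0 had an adjusted p under 0.05 in edgeR's quasi-likelihood test, where 2 of all 18547 tested genes (0.0108%) passed. At an unadjusted p under 0.05 there were also 0 members, against 2.81% of all tested genes, and DESeq2 likewise gave 0 by both criteria. In none of the 10 were the 3 mutant retinas all above or all below the 3 WT retinas, which held for 8.96% of all tested genes (5.01% higher and 3.94% lower in the mutant). The adjusted p was between 0.979 and 0.982 for all members, and unadjusted p-values ran from 0.187 for *Per1* to 0.803 for *Dbp* (edgeR). The median log2 fold change of the members, *Wfs1*-KO minus WT, was -0.10, beside 0.023 for all tested genes, with 4 members above and 6 below 0. Without *Wfs1*-KO replicate 2 the median was 0.079 beside -0.00038 for all tested genes, with 8 above and 2 below 0.

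The precision of these differences bounds their size. With all 6 retinas every 95% interval lay between -0.94, the lower bound of *Per2*, and 0.64, the upper bound of *Clock*, on the log2 scale. Without *Wfs1*-KO replicate 2 the intervals lay between -0.55 (*Per1*) and 0.59 (*Clock*). Changes of 1 log2 unit or more in either direction thus fell outside the interval of each member in both fits. The 3 retinas of each group are different mice, and p-values measure the spread between these mice.

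**Figure D1:**
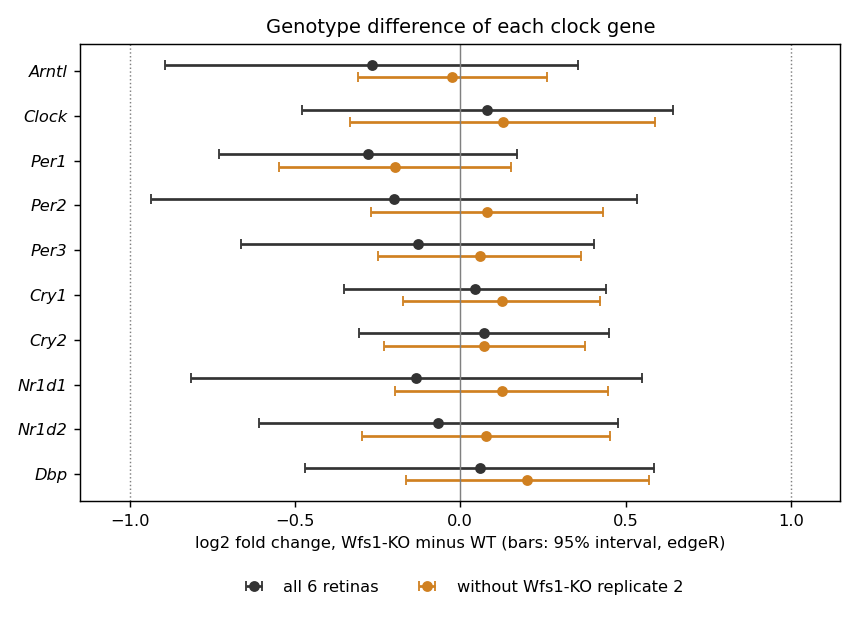
Genotype difference of the 10 clock genes. Points are log2 fold changes (*Wfs1*-KO minus WT, x axis) and bars 95% intervals from edgeR, in black for all 6 retinas and in orange without *Wfs1*-KO replicate 2; dotted lines mark -1 and 1. Each interval crosses 0 and stays inside the dotted lines.

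Of the activators, *Arntl* (ENSMUSG00000055116.8, chromosome 7, 113207465 to 113314126) had 84.0, 92.9 and 90.4 CPM in WT replicates 1, 2 and 3. In *Wfs1*-KO replicates 1, 2 and 3 it had 83.8, 46.1 and 92.1 CPM. The WT retinas lay close together, *Wfs1*-KO replicate 3 lay among them, *Wfs1*-KO replicate 1 was level with the lowest of them, and replicate 2 was at 0.517 of the WT mean. The log2 fold change was -0.27 (SE 0.27), and -0.024 (SE 0.13) without *Wfs1*-KO replicate 2. The WT range of *Arntl*, 0.14 log2 units from lowest to highest, was smaller than that of most genes, at the 7.80th percentile of all tested genes.

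*Clock* (ENSMUSG00000029238.11, chromosome 5, 76209868 to 76304792), which encodes the partner of BMAL1, had the opposite arrangement. Its WT values were 88.9, 160 and 140 CPM, and its mutant values 136, 127 and 147 CPM. Here WT replicate 1 was the low retina, and the 3 mutant retinas lay within the WT range. Its log2 fold change was 0.082 (SE 0.24), and 0.13 (SE 0.21) without *Wfs1*-KO replicate 2. Without WT replicate 1 it was -0.13 (SE 0.19), so the sign rested on that retina. The WT range of *Clock*, 0.84 log2 units, was at the 78.5th percentile of all tested genes. *Clock* lies on the same chromosome as the deleted gene.

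Of the 3 *Per* genes, which encode repressors of the loop, *Per1* (ENSMUSG00000020893.17, chromosome 11, 69095217 to 69109960) had the largest difference in size. It had 112, 92.3 and 130 CPM in WT and 101, 80.7 and 94.0 CPM in mutant retinas. All 3 mutant retinas were below WT replicates 1 and 3, but 2 of them were above WT replicate 2. The mutant minus WT difference was -0.28 log2 units (SE 0.19), and -0.20 (SE 0.16) without *Wfs1*-KO replicate 2.

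*Per2* (ENSMUSG00000055866.9, chromosome 1, 91415982 to 91459324) had 25.8, 29.4 and 34.1 CPM in WT and 33.7, 14.7 and 29.2 CPM in mutant retinas. *Wfs1*-KO replicate 2 stood at 0.494 of the WT mean, the lowest such ratio of the 10 genes, while the other 2 mutant retinas were inside the WT range. On the log2 scale the difference went from -0.20 (SE 0.31) to 0.080 (SE 0.16) when that retina was left out. *Per3* (ENSMUSG00000028957.12, chromosome 4, 151003652 to 151044665) had 80.5, 89.0 and 72.4 CPM in WT and 87.6, 52.5 and 81.1 CPM in mutant retinas. It was likewise lowest in that retina, with a genotype difference of -0.13 log2 units (SE 0.23) with all retinas and 0.059 (SE 0.14).

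The cryptochromes, the partners of the PER proteins, had the 2 smallest ranges of the members over the 6 retinas. *Cry1* (ENSMUSG00000020038.10, chromosome 10, 85131700 to 85185064) had 67.2, 77.4 and 81.5 CPM in WT and 81.8, 68.4 and 82.9 CPM in mutant retinas. *Cry2* (ENSMUSG00000068742.11, chromosome 2, 92403646 to 92434043) had 160, 129 and 146 CPM in WT and 155, 150 and 151 CPM in mutant retinas. The 3 mutant values of *Cry2* were nearly equal and lay inside the WT range, with a mutant range of 0.040 log2 units, at the 0.512th percentile of all tested genes. The log2 fold changes were 0.045 (SE 0.17) for *Cry1* and 0.071 (SE 0.16) for *Cry2*, and without *Wfs1*-KO replicate 2 they were 0.12 (SE 0.13) and 0.072 (SE 0.14). For these genes *Wfs1*-KO replicate 2 stood at 0.907 and 1.04 of the WT mean, so it was near the other retinas there.

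*Nr1d1* (ENSMUSG00000020889.11, chromosome 11, 98767932 to 98775333), which encodes REV-ERB alpha, had 208, 175 and 232 CPM in WT and 232, 113 and 217 CPM in mutant retinas. *Wfs1*-KO replicate 2 was at 0.548 of the WT mean and the other mutant retinas were at the upper end of the WT range. The log2 fold change was -0.13 (SE 0.29), and 0.12 (SE 0.15) without that retina. Its paralog *Nr1d2* (ENSMUSG00000021775.11, chromosome 14, 18204054 to 18239127) had 166, 254 and 202 CPM in WT and 219, 155 and 221 CPM in mutant retinas. The mutant minus WT value was -0.066 log2 units (SE 0.23), and 0.078 (SE 0.17) without *Wfs1*-KO replicate 2. The paralogs did not keep 1 ratio between retinas: log2 *Nr1d1* minus log2 *Nr1d2*, on the CPM scale, ran from -0.54 in WT replicate 2 to 0.33 in WT replicate 1.

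The output gene *Dbp* (ENSMUSG00000059824.12, chromosome 7, 45705088 to 45710203), which encodes a D-box activator, had 151, 105 and 117 CPM in WT and 152, 101 and 136 CPM in mutant retinas. High and low retinas occurred in each genotype, and the mutant retinas spanned the WT range. The log2 fold change was 0.058 (SE 0.23), and 0.20 (SE 0.17) without *Wfs1*-KO replicate 2.

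**Figure D2:**
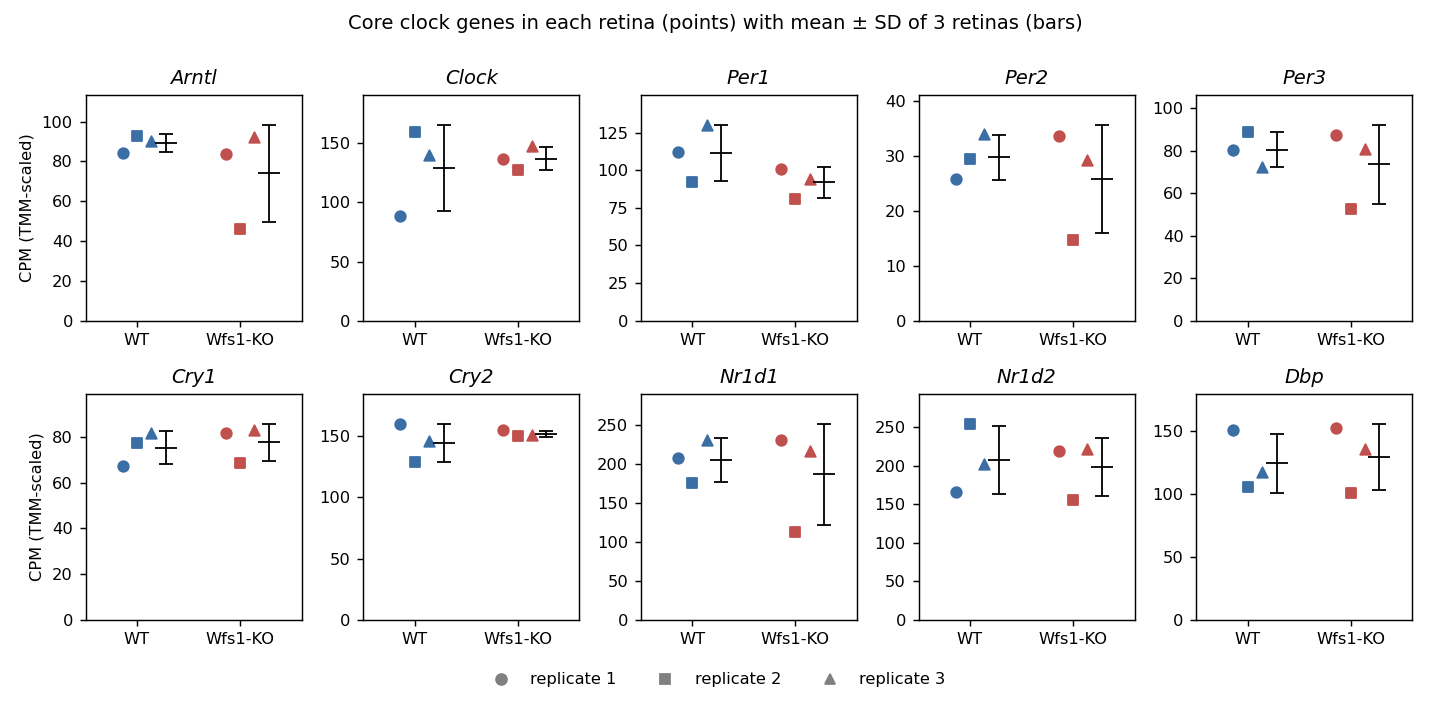
CPM of the 10 clock genes in each retina. Points are retinas (blue WT, red *Wfs1*-KO; circle, square and triangle for replicates 1, 2 and 3), bars are mean ± SD of 3 retinas, and each y axis is TMM-scaled CPM from 0. The genotypes overlap in all 10 panels, and the red square, *Wfs1*-KO replicate 2, is lowest in 7.

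Reads of some members could be shared with genes on the opposite strand, since the library kit named in the labels does not record strand in its standard protocol. In the table's annotation, exons of *Sphk2* covered 539 of the 1837 exon bases of *Dbp* (29.3%) and exons of *Thra* covered 263 of the 2721 exon bases of *Nr1d1* (9.67%). *Cry2* shared 3.43% of its exon bases with *D930015M05Rik* and *Arntl* 1.07% with *Gm45355*. The levels of *Dbp* and *Nr1d1*, and so their place in the RPKM order, are uncertain for this reason. The shares of exon bases do not give the size of the effect on the counts, which was not tested. *Sphk2* had 14.03 to 23.9 CPM (log2 fold change -0.34, SE 0.22) and *Thra* 233 to 326 CPM (log2 fold change 0.10, SE 0.18), and neither had *Wfs1*-KO replicate 2 as its lowest retina.

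*Wfs1*-KO replicate 2 was the lowest of the 6 retinas for 7 members (*Arntl*, *Per1*, *Per2*, *Per3*, *Nr1d1*, *Nr1d2* and *Dbp*), and it was the lowest for 36.8% of all tested genes. Its log2 CPM minus the WT mean was -1.01 for *Per2*, -0.95 for *Arntl*, -0.86 for *Nr1d1* and -0.61 for *Per3*. It was the highest retina for 0 members, against 38.4% of all tested genes. *Arntl* and *Nr1d1* were low together there, and the part of the hour of collection, which is not given, was not tested. The summed blood, microglia and pigment epithelium markers given above were high in the same retina, while the glia markers were mixed. The pigment epithelium genes were not uniform either. Most were highest there, such as *Dct* with 92.8 CPM against 5.19 to 8.68 CPM in WT. *Rpe65* (20.8 CPM) and *Lrat* (4.59 CPM) were below WT replicate 2 (21.8 and 11.9 CPM), and *Best1* (1.14 CPM) was below WT replicate 1 (1.23 CPM). The part of these markers in the levels of the clock genes was not tested. In whole tissue, fewer cells of a type and less RNA per cell cannot be told apart.

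**Figure D3:**
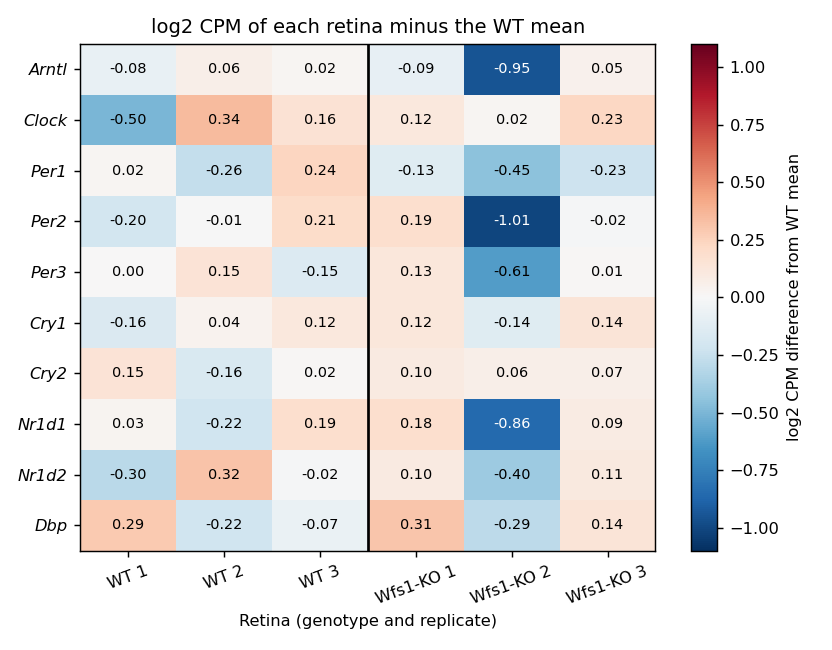
Deviation of each retina from the WT mean. Rows are the clock genes, columns the 6 retinas, and colour and number give log2 CPM minus the mean log2 CPM of the 3 WT retinas. The blue column is *Wfs1*-KO replicate 2, with -1.01 for *Per2* and 0.06 for *Cry2*; *Wfs1*-KO replicates 1 and 3 range from -0.23 to 0.31.

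Since the hour of collection is not stated, each retina was also placed on a day-night contrast, as a description only. It was the mean log2 CPM of *Dbp*, *Nr1d1*, *Nr1d2*, *Per1*, *Per2* and *Per3* minus that of *Arntl*, *Clock* and *Cry1*. The values were 0.38, -0.035 and 0.12 in WT replicates 1, 2 and 3 and 0.23, -0.092 and 0.033 in *Wfs1*-KO replicates 1, 2 and 3. The genotypes overlapped, with means of 0.15 ± 0.21 (SD, n = 3) in WT and 0.057 ± 0.16 (SD, n = 3) in mutant retinas. The difference between *Dbp* and *Arntl* alone was 0.84, 0.18 and 0.37 log2 units in WT and 0.86, 1.13 and 0.56 in mutant retinas. Its highest value was in *Wfs1*-KO replicate 2, where *Arntl* and *Dbp* were both at their lowest. The difference between *Nr1d1* and *Arntl* was 1.20 ± 0.24 log2 units in WT and 1.33 ± 0.12 in mutant retinas (SD, n = 3 each).

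Over the 6 retinas, the 5 genes of at least 5 CPM whose log2 CPM followed *Arntl* most closely were *Dclre1a*, *Zmym1*, *Chrna6*, *Dgcr8* and *Zfp866*, with Pearson r of 0.998 to 1.00 as a description. In all 5, as in *Arntl*, *Wfs1*-KO replicate 2 was low, for example *Chrna6* with 70.1 CPM there and 115 to 126 CPM in the other 5. For *Dbp* they were *Arsa*, *Zfp414*, *Bcar1*, *Arvcf* and *Nprl3*, with r of 0.963 to 0.989. None of these 10 genes is a clock member. The 6 points share 1 retina that stood apart.

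Other genes of the clock were taken from lists by known role. Of the 11 partners and paralogs, all tested, 0 had an unadjusted p under 0.05 in the fit on 6 retinas (edgeR), and the median log2 fold change was 0.12. In 4 of the 11 the genotypes did not overlap, beside 8.96% of all tested genes. *Rora*, an activator of *Arntl* through ROREs, had 179, 306 and 275 CPM in WT and 318, 445 and 329 CPM in mutant retinas (log2 fold change 0.52, SE 0.25). *Npas2*, which can stand in for *Clock*, had 2.10 to 3.54 CPM in WT and 3.88 to 4.68 CPM in mutant retinas (log2 fold change 0.54, SE 0.29). *Bhlhe41*, an E-box repressor, had 112 to 118 CPM in WT and 126 to 139 CPM in mutant retinas. *Nfil3*, the D-box repressor that opposes DBP, was the gene with lower mutant values, 15.6 to 19.6 CPM against 20.2 to 23.8 CPM (log2 fold change -0.28, SE 0.18). None of the 4 passed, with an adjusted p of 0.979 each (edgeR). Without *Wfs1*-KO replicate 2, *Npas2* (log2 fold change 0.59, unadjusted p = 0.0427, adjusted p = 0.921) and *Nfil3* (-0.36, unadjusted p = 0.0465, adjusted p = 0.947) were under 0.05 before adjustment, where 5.19% of all tested genes were (2.8% higher and 2.39% lower). *Tef* and *Hlf*, the relatives of *Dbp*, had log2 fold changes of -0.0056 (SE 0.15) and -0.086 (SE 0.23), and both turned sign without *Wfs1*-KO replicate 2, to 0.025 (SE 0.12) and 0.086 (SE 0.15).

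Of the 22 kinases, ligases and other modifiers of the clock, all tested, 0 had an unadjusted p under 0.05 in either fit (edgeR). Their log2 fold changes ran from -0.27 to 0.48 with a median of -0.078, and the median was 0.028 without *Wfs1*-KO replicate 2. The genotypes did not overlap in 1 of the 22 with 6 retinas, lower in the mutant, beside 3.94% of all tested genes lower. Without *Wfs1*-KO replicate 2 there were 2, both lower, beside 11.4%. *Csnk1d* and *Csnk1e*, the kinases of the PER proteins, had log2 fold changes of -0.074 (SE 0.17) and 0.48 (SE 0.31), the second falling to 0.029 without that retina.

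Of the 12 genes listed as clock outputs across tissues, 0 had an unadjusted p under 0.05 with 6 retinas. Without *Wfs1*-KO replicate 2 there were 2, both lower, beside 2.39% of all tested genes lower. In that fit 6 of the 12 had both mutant retinas below every WT retina, beside 11.4% of all tested genes, and the median log2 fold change was -0.11. With 6 retinas the genotypes did not overlap in 0 of the 12, beside 8.96% of all tested genes. *Usp2*, a ubiquitin protease, had 152 to 166 CPM in WT and 125, 310 and 107 CPM in *Wfs1*-KO replicates 1, 2 and 3. The difference was 0.17 log2 units (SE 0.39) on 6 retinas and -0.47 (SE 0.13, unadjusted p = 0.00537, adjusted p = 0.563, edgeR) without replicate 2. *Cdkn1a*, a cell cycle inhibitor, had 2.21 to 3.43 CPM in WT and 1.42, 4.59 and 1.66 CPM in the mutant retinas, with a log2 fold change of -0.18 on 6 retinas and -0.93 without replicate 2 (unadjusted p = 0.00879, adjusted p = 0.661, edgeR).

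Of the 19 genes listed for rhythmic retinal functions, 16 were tested, and *Asmt*, *Mtnr1b* and *Opn5* had at most 6 counts in any retina. None of the 16 had an unadjusted p under 0.05 with 6 retinas (edgeR). The log2 fold change of *Drd4*, the dopamine receptor of photoreceptors, was 0.30 (SE 0.25), that of *Adcy1*, an adenylyl cyclase, 0.011 (SE 0.28), and that of *Opn4*, which encodes melanopsin, 0.072 (SE 0.24). Without *Wfs1*-KO replicate 2 these became 0.17 (SE 0.21), 0.25 (SE 0.16) and 0.0014 (SE 0.22). *Cacna1d*, a calcium channel subunit, was the only gene under 0.05 before adjustment without *Wfs1*-KO replicate 2 (log2 fold change 0.45, unadjusted p = 0.0231, adjusted p = 0.813, edgeR).

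*Per1* and *Per2* are also switched on by light and neuronal activity through CREB and, for *Per1*, by glucocorticoids, so genes of these responses were set beside them. Of 13 tested light and CREB-inducible genes, 5 were lower and 1 was higher at an unadjusted p under 0.05, beside 0.566% of all tested genes lower and 2.24% higher, and 0 passed after adjustment (edgeR). *Egr3*, an immediate early transcription factor, had 2.35 to 4.43 CPM in WT and 0.758 to 1.20 CPM in mutant retinas (log2 fold change -1.73, SE 0.39, unadjusted p = 0.0028). *Fos* had 36.6 to 44.0 CPM in WT and 28.4 to 32.4 CPM in mutant retinas (log2 fold change -0.43, SE 0.17, unadjusted p = 0.0355). The nuclear receptor genes *Nr4a3* (-1.77, SE 0.42) and *Nr4a1* (-0.64, SE 0.17) were lower on 6 retinas too, while *Egr1* (-0.67, SE 0.18) and *Arc* (-0.92, SE 0.40) were under 0.05 before adjustment only without *Wfs1*-KO replicate 2. *Gadd45b*, a stress-inducible gene, was the one higher, with 23.2 CPM in *Wfs1*-KO replicate 2 against 9.20 and 10.5 CPM in the other mutant retinas and 5.96 to 7.59 CPM in WT. The median of the list was -0.43, with 4 genes above and 9 below 0. The paper had already reported *Nr4a1* and *Nr4a3* as reduced in these retinas, and the list was chosen with earlier results of these data known. The number of lower genes is therefore not an independent result. Without *Wfs1*-KO replicate 2, 7 of 14 such genes were lower and 1 higher at an unadjusted p under 0.05, beside 2.39% and 2.8% of all tested genes, with a median of -0.42 and 0 past adjustment (edgeR). Of the 12 glucocorticoid-inducible genes, 1 was lower at an unadjusted p under 0.05, *Dusp1*, which is on both lists, with 31.9 to 37.4 CPM in WT and 20.6 to 29.7 CPM in mutant retinas, and the median was -0.052, or -0.13 without *Wfs1*-KO replicate 2.

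**Figure D4:**
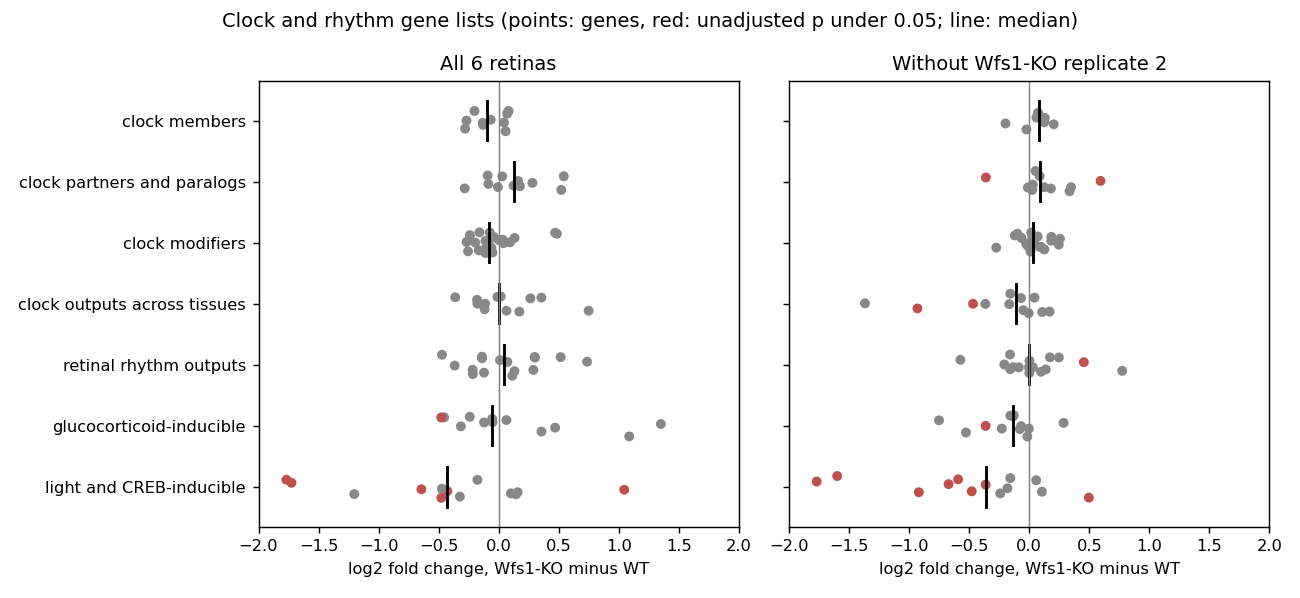
Log2 fold changes (*Wfs1*-KO minus WT, x axis) of the clock genes and the other lists (y axis), with all 6 retinas on the left and without *Wfs1*-KO replicate 2 on the right. Points are genes tested on 6 retinas, red where the unadjusted p is under 0.05, and lines are medians. No point of the clock genes is red on either side, and most red points belong to the light and CREB-inducible list.

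Variation between retinas of 1 genotype was of the same order as for other genes. The median range of the 10 members, highest minus lowest log2 CPM, was 0.40 among WT retinas, beside 0.46 for all tested genes. Among *Wfs1*-KO retinas it was 0.55, beside 0.79. The widest WT ranges were those of *Clock* and *Nr1d2* (0.84 and 0.61 log2 units), and the widest mutant ranges those of *Per2* and *Nr1d1* (1.19 and 1.04), where *Wfs1*-KO replicate 2 was the lowest retina.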

How the data were processed

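Reads of 6 whole retinas were analysed from the deposited table of raw counts per gene. The authors trimmed, mapped to mm10 and counted reads on exons (the processing notes list Trimmomatic 0.39, STAR 2.5.3a and featureCounts 1.6.4; the methods list other versions). The deposited counts are raw, and the methods name an RPKM normalization for the authors' own tests. The table has 8 library columns. Columns were matched by name, reading C as control and W as *Wfs1* mutant beside the number of the mouse, and 2 others fitted none of the listed samples and were left out. Exon lengths and coordinates are those of the table, and gene identifiers those of GENCODE M21 on the same build.

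The quasi-likelihood test of edgeR 4.0.16 (R 4.3.3) compared the genotypes, after TMM scaling and filterByExpr, in a model of genotype alone. Adjusted p-values are Benjamini-Hochberg values over all tested genes. The standard error is the log2 fold change divided by the square root of F, and intervals are 95%. Logged CPM used a prior count of 2. Total counts were 17916885 to 101334381, so that 3 counts correspond to 0.0296 to 0.167 CPM, a floor for counting error only. The procedure was tested on simulated data.

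Named genes are the members, *Wfs1*, genes of the clock and rhythm lists with an unadjusted p under 0.05 in either fit, genes most like *Arntl* and *Dbp*, and genes sharing exons; others were named after their values were seen. Members and lists were chosen with earlier results of these data known. Alternatives were DESeq2 1.42.0, limma 3.58.1 (voom), RLE and upper-quartile factors, no filter, 10 counts in every retina, a replicate block, a robust fit and each retina left out.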

Additional observations from a re-analysis of the deposited data

How the results depend on the processing

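Under the 15 alternatives, 0 of 150 member fold changes had an adjusted p under 0.05, and the smallest was 0.654 (*Dbp*, limma-voom with quality weights). The sign held in 131 and turned in 19. With limma-voom the log2 fold changes were 0.045 for *Per2*, 0.11 for *Per3*, 0.085 for *Nr1d1* and 0.073 for *Nr1d2*, and with DESeq2 without *Wfs1*-KO replicate 2 they were 0.079, 0.058, 0.12 and 0.077. The quality weight of *Wfs1*-KO replicate 2 in limma-voom was 0.0930, against 0.641 to 3.46 for the other retinas. Both alternatives thus largely set that retina aside and are not independent of each other. Leaving out each retina in turn gave ranges of -0.13 to 0.26 for *Clock*, -0.44 to 0.080 for *Per2*, -0.27 to 0.059 for *Per3*, -0.033 to 0.12 for *Cry1*, -0.0089 to 0.15 for *Cry2*, -0.32 to 0.12 for *Nr1d1*, -0.20 to 0.11 for *Nr1d2* and -0.076 to 0.22 for *Dbp*. *Arntl* (-0.46 to -0.024) and *Per1* (-0.40 to -0.17) kept their sign. Limma-voom gave 1 member, *Dbp*, an unadjusted p under 0.05 (0.0491), where 7.63% of all tested genes had one. Members whose genotypes did not overlap numbered 0 to 1 when a retina was left out: *Cry2* without WT replicate 1 (20.4% of all tested genes), *Per1* without WT replicate 2 (17.2%), *Cry1* without *Wfs1*-KO replicate 2 (22.5%) and *Arntl* without *Wfs1*-KO replicate 3 (16.5%). The other clock genes were those of the lists with 11, 22, 12 and 16 tested genes. Of these, 0 had an unadjusted p under 0.05 in the reported fit (2.81% of all tested genes) and 8 with limma-voom (7.63%). There were 5 without *Wfs1*-KO replicate 2 (5.19% of all tested genes, and 0 to 5 members of these lists over all retinas left out). DESeq2 without that retina gave 6 (4.94% of all tested genes) and the replicate block 1 (1.67%). Calls over all genes, 2 in the reported fit, were 52 with DESeq2, 35 with limma-voom, 9 with no filter, 94 with DESeq2 without *Wfs1*-KO replicate 2, 0 to 24 when a retina was left out (24 without *Wfs1*-KO replicate 2, 0 without each of the WT replicates) and 1 with the replicate block. The causes were not tested. Same-numbered retinas are different mice, and their deviations correlated by -0.23, -0.11 and 0.078. Differently numbered retinas of the 2 genotypes ran from -0.24 to 0.27. So few values cannot show whether same-numbered mice shared a litter or handling. The block changed no call of a member. The rank of the WT level held for 8 to 10 of the 10 members when a retina was left out, and the day-night contrast, mutant minus WT, ran from -0.19 to 0.014. Each member had at least 601 counts in each retina.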
